A study of Mus musculus with 6 samples.

Results

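Oxidative phosphorylation is carried out by 5 protein complexes of the inner mitochondrial membrane, and most of their subunits are encoded in the nucleus. The 85 genes described here were chosen by symbol alone from the 23282 genes of the deposited table: those named Nduf with a letter a, b, c, s or v and a number, Sdha to Sdhd, Uqcr, Cyc1, Cox with a number from 4 to 8, or Atp5. They comprise 35 genes of complex I, 4 of complex II, 9 of complex III, 20 of complex IV and 17 of complex V. Ndufa4 and Ndufa4l2 were counted in complex IV, where the Ndufa4 protein is now placed. The rule also takes in Atp5s and Atp5sl, which carry the older names of assembly and coupling proteins rather than subunits of the ATP synthase, and Cox7a2l, a factor that joins complexes III and IV. The rule reads symbols and no measured value, but it was set with earlier results of these data known.

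The study sequenced RNA of hepatocytes treated with the inflammatory cytokine IL-1β to look for the mechanism that lowers Serpina1 expression. Primary hepatocytes were obtained from livers of C57BL/6N mice by collagenase perfusion and filtering and were left for 3 h to attach. Then 3 samples received no treatment and 3 received recombinant IL-1β protein for 24 h, at a dose that the sample labels do not give. The labels give no time in culture for the untreated samples. A difference in culture time between the groups could therefore not be told apart from the treatment. RNA was sequenced by QuantSeq, which reads only the 3′ end of each mRNA, to between 9538741 and 11105408 counts per library. The ribosomal RNA gene Rn45s held 14.2%, 14.1% and 11.7% of these counts in control and 12.7%, 11.9% and 12.4% in IL-1β libraries. Its counts are part of the totals from which shares are taken below.

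In the respiratory chain, complex I takes electrons from NADH and complex II from succinate. Complex III passes them from ubiquinol to cytochrome c, and complex IV passes them to oxygen. Complexes I, III and IV pump protons across the membrane, and complex V, the ATP synthase, uses the gradient to make ATP. Hepatocytes rely on this machinery for the ATP that gluconeogenesis and urea synthesis consume. The catalytic cores of complexes I, III and IV, and complex V, also contain subunits encoded by mitochondrial DNA, which were not analysed here.

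The libraries were first compared with markers of the labelled cell type. Alb, the gene of albumin, was the most counted hepatocyte marker, at 16200 ± 516 CPM (counts-per-million with TMM-scaled library sizes; SD, n = 3) in control and 14104 ± 577 in IL-1β samples. Ttr, Apoa1, Apoe, Apob, Serpina1c, Hnf4a and Cyp2e1 were also counted in every library. The urea cycle genes Cps1 and Ass1 and the gluconeogenic gene Pck1 were near the limit of counting, with control means of 2.65, 0.717 and 0.694 CPM. After IL-1β, 8 of the 9 hepatocyte markers tested were lower at an adjusted p below 0.05 (DESeq2 7, limma 6) and none was higher with any of these tools. Of all genes tested, 6.44% were called lower and 6.97% higher. The summed level of the list was 28994 ± 221 CPM in control and 24485 ± 903 CPM in IL-1β samples. In bulk samples, fewer cells of a type and less RNA per cell cannot be told apart. The log2 fold change was -1.04 for Hnf4a (adjusted p = 1.62e-09, edgeR), which was called in all 15 alternatives, and -0.20 for Alb. The fall of Alb lost its call with limma (adjusted p = 0.0631) and without IL-1β replicate 1 (log2 fold change -0.16, adjusted p = 0.0894) or control replicate 2 (-0.19, adjusted p = 0.0744), with an adjusted p between 0.000507 and 0.0894 over all its alternatives.

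Markers of other liver cells were also counted. The macrophage list summed to 266 ± 16.8 CPM in control and 264 ± 18.2 CPM in IL-1β samples, most of it Cd68. Of its 10 tested genes 0 passed the test (edgeR quasi-likelihood), 0 with DESeq2 or limma and 1 with the exact test. The flat sum rests on Cd68 (log2 fold change -0.06), while 7 of the 10 genes were above 0, with a median of 0.38. The 3 genes with an unadjusted p below 0.05 were all above 0: Cd74 (0.56) and Marco (0.67), without overlap, and C1qa (0.75). The Kupffer cell marker Timd4 had 0 counts in 4 of the 6 libraries. The endothelial list summed to 81.1 ± 4.5 and 81.4 ± 3.58 CPM, with Eng the most counted gene. Among its 8 genes, Stab2 (log2 fold change -1.16) was lower and Cdh5 (0.32) was higher, both without overlap but not called. Kdr (-1.49) and Clec4g (-2.87) were called lower and Lyve1 (0.45) was called higher. Lyve1 did not keep this call with total-count scaling (0.40) or without IL-1β replicate 2 or 3 or control replicate 1 or 3 (log2 fold changes of 0.40, 0.46, 0.36 and 0.43). The stellate cell list summed to 22.8 ± 2.17 and 25 ± 2.94 CPM, most of it Dcn, and 0 of its 2 tested genes passed the edgeR test (0 at an unadjusted p below 0.05, 0 with DESeq2 or limma). Of the cholangiocyte markers, Spp1 was lower after IL-1β (190 ± 1.95 against 82.7 ± 5.17 CPM). Sox9 was at 134 ± 5.31 against 155 ± 5.86 CPM, without overlap (log2 fold change 0.21, adjusted p = 0.0519), and was called higher in 5 of 15 alternatives, DESeq2, the exact test and the fit without control replicate 1 (0.22, adjusted p = 0.0473) among them. Krt7, Krt19, Epcam and Cftr had few or no counts. S100a9 and Cd3e, which mark neutrophils and T cells, had no count in any library, and S100a8 had 0 counts in each control library and 19, 36 and 51 in the IL-1β libraries. The part of these shifts in the values below was not tested.

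IL-1β left the oxidative phosphorylation genes close to their control levels. Taken as a share of all counts in a library, the 85 genes held 1.09%, 1.11% and 1.17% in the control samples and 1.03%, 1.05% and 1.07% in the IL-1β samples. No mitochondrially encoded gene was matched in the table, so this total does not include their transcripts. The groups do not overlap on this scale, and the mean share was 1.12 ± 0.0405% against 1.05 ± 0.0202%. On the TMM scale the summed levels were 10771, 11080 and 11253 CPM in control and 10533, 10631 and 11009 CPM after IL-1β. There the groups overlap, and the mean after IL-1β was 0.972 times the control mean. The 2 scales differ because TMM sets the bulk of genes equal between libraries, and the IL-1β libraries had the smaller TMM factors (0.976 to 0.987, against 1.01 to 1.04 in control).

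Of the 85 genes, 79 had enough counts to be tested, among 11657 genes tested in all. Of these 79, 2 were called at an adjusted p below 0.05 (edgeR quasi-likelihood test), where 13.4% of all genes tested were called. Both called genes, Ndufa6 of complex I and Uqcr11 of complex III, were lower after IL-1β, and 6.44% of all genes were called lower. No member was called higher, against 6.97% of all genes; DESeq2 also called 0 higher and limma called 1, and at an unadjusted p below 0.05 the fit had 1 member higher and 6 lower. These 7 members at an unadjusted p below 0.05 compare with 23.6% of all genes. The count of 2 members became 4 with the replicate block, without a count filter or with total-count scaling, and 6 without control replicate 1. Among genes with a mean of at least 20 CPM, where counting error is smaller, 17.4% of all genes and 2 of 76 members were called.

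The members' log2 fold changes were also small. Their median was -0.03, with 52 members below 0 and 27 above, and the median over all genes tested was -0.00184. With total-count scaling the members' median was -0.087, with 65 below 0, and without IL-1β replicate 1 it was -0.00841, with 44 below 0. The lower and upper quartiles of the members were -0.08 and 0.02, against -0.10 and 0.12 for all genes with at least 20 CPM. The median size of the change, without its sign, was 0.06 for the members and 0.11 for all genes with at least 20 CPM. Among members at that level, 75 of 76 had a 95% interval that lay within a 1.5-fold change in either direction, and 88.0% of all genes at that level did. These members were also counted more, with medians of 124 CPM and an SE of 0.082, against 56.9 CPM and 0.097 for all such genes. The sets were not matched for this, and its part in the smaller changes and narrower intervals was not tested. In 7 members the IL-1β samples did not overlap the control samples, against 28.2% of all genes; all 7 were lower, against 14.2%. These were Ndufa6, Ndufb10 and Ndufa13 of complex I, Uqcr11 of complex III, and Atp5g3, Atp5a1 and Atp5c1 of complex V.

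**Figure D1:**
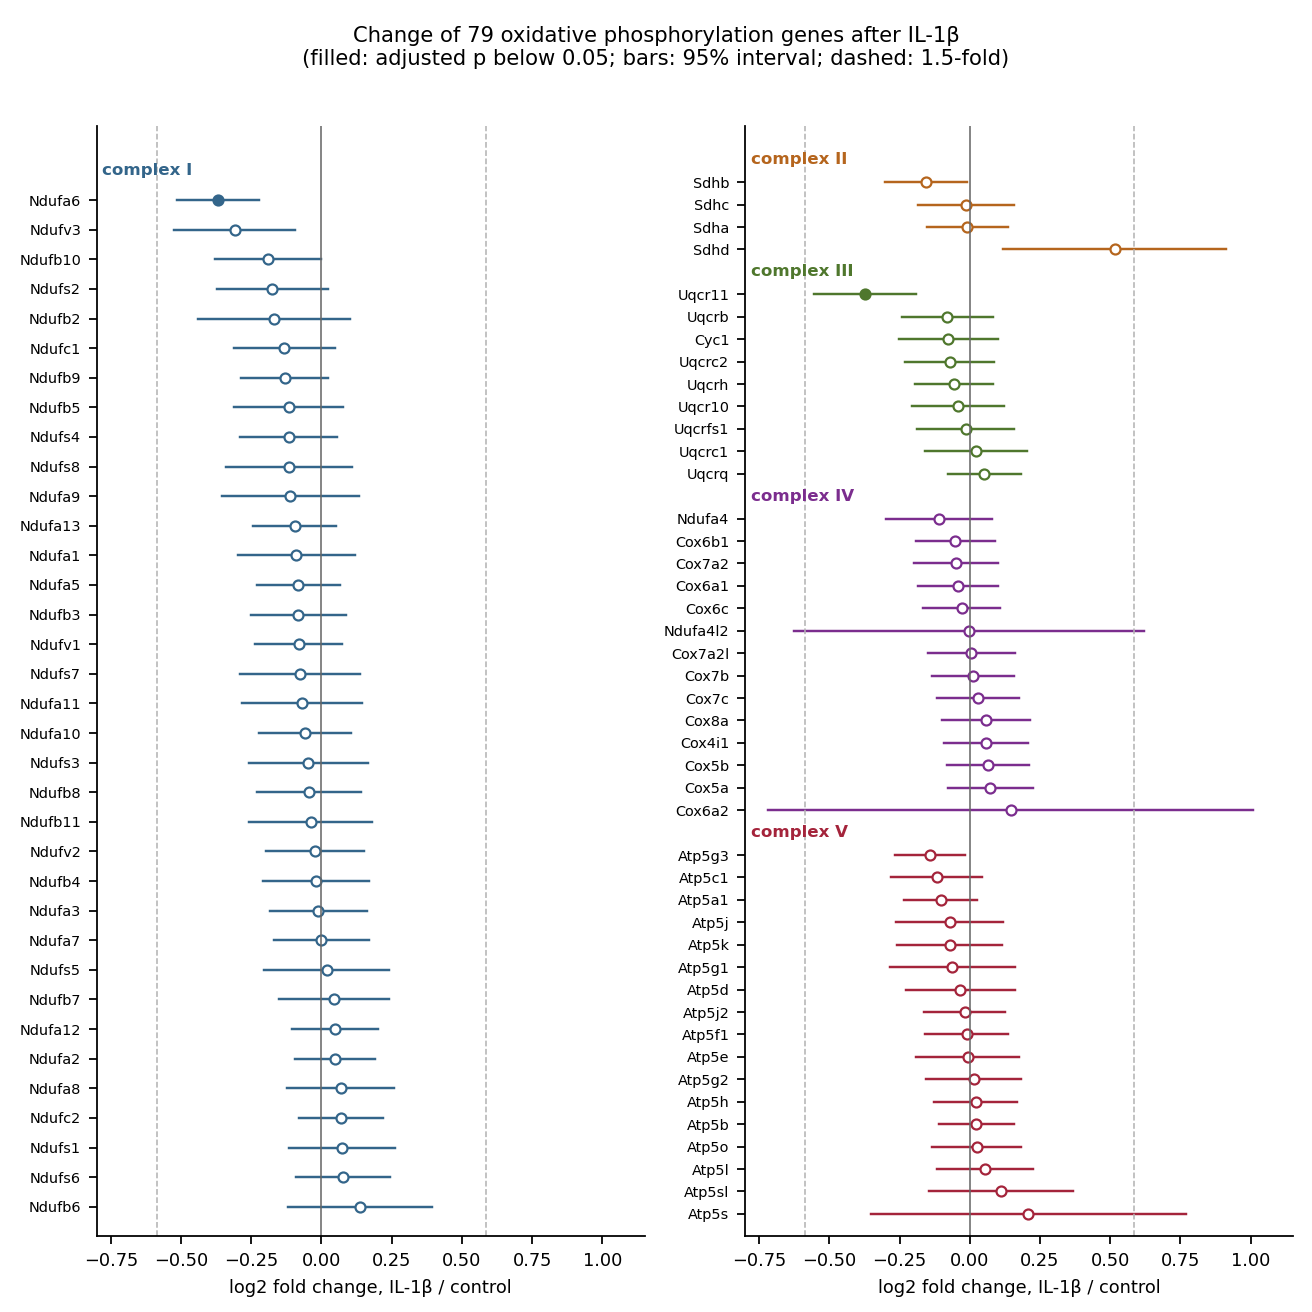
Log2 fold change (IL-1β over control) of the 79 members tested, by complex, with 95% intervals as bars; filled points have an adjusted p below 0.05 and dashed lines mark a 1.5-fold change. Only Ndufa6 and Uqcr11 are filled, and the intervals of 4 members, Sdhd, Cox6a2, Atp5s and Ndufa4l2, reach past a dashed line.

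Complex I, the largest of the complexes, had a median log2 fold change of -0.07, with 26 of its 35 genes below 0. The median was -0.03 without IL-1β replicate 1 and -0.12 with total-count scaling. All 35 intervals lay within a 1.5-fold change. Its share of all counts was 0.342%, 0.351% and 0.370% in control and 0.315%, 0.329% and 0.334% in IL-1β samples, without overlap, whereas its summed TMM levels overlap (3389, 3484 and 3568 CPM against 3216, 3335 and 3425 CPM). Ndufa6 encodes an accessory subunit of the matrix arm, a member of the LYR protein family. It had 1998, 2215 and 2034 counts in the control libraries and 1346, 1630 and 1688 in the IL-1β libraries, or 188, 198 and 205 CPM against 144, 157 and 157 CPM. Every IL-1β sample was below every control sample. The log2 fold change was -0.37 (SE 0.07), with a 95% interval from -0.51 to -0.22 and an adjusted p of 0.000502 (edgeR). This gene (Entrez 67130) lies on the minus strand at chr15:82350139-82354291 of GRCm38.

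Ndufv3, an accessory subunit of the NADH-oxidizing N module, had 52.9, 62.3 and 65.0 CPM in control and 45.1, 45.1 and 55.1 CPM in IL-1β samples. It is named because its unadjusted p was below 0.05, after its values were seen. IL-1β replicate 3 was above control replicate 1, so the groups overlap. Its log2 fold change of -0.31 (SE 0.10) missed the threshold by a small margin, at an adjusted p of 0.0515. It passed in 7 of 15 alternatives: with the exact test, without a count filter, with the replicate block, with total-count or upper-quartile scaling, and without IL-1β replicate 3 (-0.41, adjusted p = 0.0253) or control replicate 1 (-0.39, adjusted p = 0.00632), and its adjusted p ranged from 0.00632 to 0.232 over the alternatives. Ndufb10, of the membrane arm, was likewise named after its values were seen. It measured 61.8, 61.1 and 58.4 CPM against 50.4, 51.4 and 57.3 CPM, without overlap, and its log2 fold change of -0.19 (SE 0.09) had an adjusted p of 0.212.

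The most counted genes of complex I stayed near their control levels. Ndufa2 measured 215, 221 and 228 CPM in control and 226, 215 and 246 CPM in IL-1β samples, a log2 difference of 0.05 (SE 0.07). Ndufa10 measured 185, 212 and 221 CPM against 181, 218 and 194 CPM (-0.06, SE 0.08), and Ndufa5 measured 198, 201 and 195 CPM against 174, 183 and 204 CPM (-0.08, SE 0.07). In all 3 of them the groups overlap. Seen by the parts in which complex I is built, the N module, which binds NADH, held the called gene Ndufa6 and had a median log2 fold change of -0.01 over 10 genes. In the Q module, which reduces ubiquinone, all 6 genes were below 0, with a median of -0.10, and none was called (edgeR, with 0 at an unadjusted p below 0.05, and 0 with DESeq2 or limma). The 9 genes of the proximal and the 10 genes of the distal membrane arm had medians of -0.06 and -0.06, also without a call. There 1 gene, Ndufb10, had an unadjusted p below 0.05. The 7 nuclear genes of the catalytic core, which carry the flavin and the iron-sulfur clusters, had a median of -0.08 and the 28 accessory genes one of -0.06. On the TMM scale the summed levels of the N module (1168, 1200 and 1214 CPM against 1140, 1121 and 1158 CPM), the Q module (454, 463 and 463 CPM against 404, 436 and 447 CPM) and the core (488, 475 and 484 CPM against 461, 465 and 455 CPM) were lower without overlap. The N module includes Ndufa6 (188, 198 and 205 CPM against 144, 157 and 157 CPM), and its sum without this gene was not tested. The summed levels of the membrane arm parts overlap. The difference between these parts was not tested.

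Complex II, or succinate dehydrogenase, is made only of nuclear-encoded subunits and belongs to the TCA cycle as well. Sdha, which holds the flavin, measured 142, 147 and 154 CPM in control and 145, 147 and 149 CPM after IL-1β (log2 fold change -0.01, SE 0.07). The membrane anchor Sdhc measured 96.1, 88.2 and 101 CPM against 91.6, 102 and 89.3 CPM (-0.01, SE 0.08). Sdhb, the iron-sulfur subunit, measured 218, 250 and 248 CPM against 210, 209 and 224 CPM; its log2 fold change of -0.16 (SE 0.07) had an adjusted p of 0.170, and it was called only without control replicate 1 (-0.22, adjusted p = 0.0269; range over the alternatives 0.0269 to 0.442). The 4 genes together held 0.0536 ± 0.00279% of counts in control and 0.0508 ± 0.000886% in IL-1β samples.

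Sdhd, the other membrane anchor, varied most between replicates among the members with at least 20 CPM. It had 703, 274 and 423 counts in the control libraries and 627, 551 and 755 in the IL-1β libraries, or 66.0, 24.5 and 42.6 CPM against 67.0, 52.9 and 70.2 CPM. Control replicate 1 lay within the range of the IL-1β samples and control replicate 2 lay far below all other samples. The log2 fold change of 0.52 (SE 0.19) was the highest of the 79 members, with an adjusted p of 0.0840. Sdhd is named after its values were seen. It was called in 4 of 15 alternatives: with limma, without a count filter, with the replicate block, and without control replicate 1 (0.92, adjusted p = 1.32e-06). Without control replicate 2 the log2 fold change was 0.22, with an adjusted p of 0.422. Over all alternatives its adjusted p ranged from 1.32e-06 to 0.548.

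**Figure D2:**
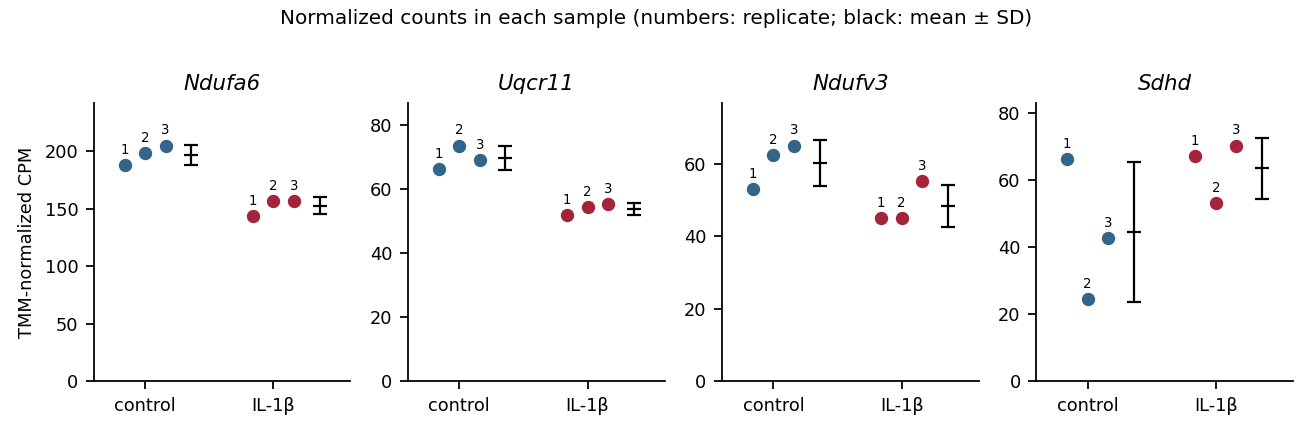
TMM-normalized CPM of Ndufa6, Uqcr11, Ndufv3 and Sdhd in each of the 6 samples; numbers beside the points give the replicate, and the black bar gives the mean and SD of each group. The groups are apart in Ndufa6 and Uqcr11 and overlap in Ndufv3 and Sdhd, where control replicate 2 stands at 24.5 CPM.

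Complex III had a median log2 fold change of -0.06, with 7 of its 9 genes below 0 and all 9 intervals within a 1.5-fold change. The median was -0.00479 without control replicate 2, -0.02 without IL-1β replicate 2 and -0.11 with total-count scaling. Uqcr11 encodes a very small subunit at the edge of the complex. It had 705, 821 and 684 counts in control and 484, 564 and 593 after IL-1β, or 66.2, 73.5 and 68.9 CPM against 51.7, 54.2 and 55.1 CPM. All 3 IL-1β samples were below all 3 control samples. Its log2 fold change was -0.37 (SE 0.09; 95% interval -0.56 to -0.19; adjusted p = 0.00445 by edgeR). The gene (Entrez 66594) lies on the minus strand at chr10:80402997-80406821 of GRCm38.

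The most counted genes of the same complex had smaller log2 fold changes, and their difference from Uqcr11 was not tested. Uqcrq, a small subunit that contacts cytochrome b, measured 379, 401 and 411 CPM in control and 405, 399 and 431 CPM after IL-1β (log2 fold change 0.05, SE 0.06). The hinge protein Uqcrh measured 321, 373 and 347 CPM against 335, 320 and 347 CPM (-0.06, SE 0.07). It takes part in the contact of cytochrome c1 with cytochrome c. The core protein Uqcrc2 measured 193, 241 and 231 CPM against 205, 212 and 216 CPM (-0.07, SE 0.08); the 3′ end of its transcript lies within the neighbouring gene Pdzd9 on the other strand. None of the 3 passed the test, and their groups overlap. Complex III held 0.170 ± 0.00767% of counts in control and 0.160 ± 0.00463% in IL-1β samples.

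Complex IV, cytochrome c oxidase, had no called gene, and 0 of its 14 tested genes had an unadjusted p below 0.05; DESeq2 and limma also called none. The median log2 fold change was 0.01 with TMM scaling and turned negative with upper-quartile (-0.02) and total-count (-0.05) scaling, and without control replicate 1 (-0.02). The most counted genes were Cox6a1, Cox7a2 and Cox4i1, forms of their subunits that are used in liver. Cox6a1 measured 332, 364 and 378 CPM in control and 335, 335 and 373 CPM in IL-1β samples, a log2 fold change of -0.04 (SE 0.07). Cox7a2 measured 289, 355 and 330 CPM against 323, 299 and 319 CPM (-0.05, SE 0.07), and its direction turned without control replicate 2 (0.024). Cox4i1 measured 232, 262 and 258 CPM against 256, 243 and 284 CPM (0.06, SE 0.07). In each of these genes the groups overlap, and only IL-1β replicate 3 of Cox4i1 lay outside the control range.

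Several subunits of complex IV have other forms that are typical of muscle, lung or testis, and these were almost silent in the cultures. Cox4i2, the form of subunit 4 known from lung and low oxygen, had no count in any library, and neither had Cox7b2, Cox8b and Cox8c. A count of 0 allows up to 3 counts, which is 0.270 to 0.315 CPM in these libraries by total counts. This limit covers counting error only. Cox6b2 had 4, 3 and 1 counts in control and 1, 2 and 0 after IL-1β, and Cox7a1 had 3, 5 and 9 against 1, 3 and 4, too few to test. Cox6a2, the heart and muscle form, was the only one of these 7 to be tested, at 2.02 ± 0.125 CPM in control and 2.22 ± 0.932 CPM after IL-1β. Ndufa4l2, a relative of Ndufa4 that is induced by low oxygen in many cells, measured 3.66, 3.94 and 4.13 CPM against 3.85, 4.42 and 3.44 CPM; its log2 fold change of -0.00309 (SE 0.30) had a 95% interval from -0.63 to 0.62, which leaves room for a change of about 1.5-fold in either direction at this depth. Cox7a2l measured 134, 146 and 140 CPM against 142, 130 and 149 CPM (0.01, SE 0.07).

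Complex V had a median log2 fold change of -0.01, and 10 of its 17 genes were below 0. Without IL-1β replicate 2 the median was 0.02, and with total-count scaling it was -0.06. Atp5g3 is 1 of the genes for subunit c, which forms the rotating ring, and was the most counted of all 85 genes. It measured 744, 777 and 806 CPM in control and 688, 730 and 689 CPM in IL-1β samples. Every IL-1β sample was below every control sample, by little. The log2 fold change of -0.14 (SE 0.06) had an adjusted p of 0.140 and was called only with total-count scaling (-0.20, adjusted p = 0.0379; range over the alternatives 0.0379 to 0.367). The other genes for subunit c, Atp5g1 and Atp5g2, encode the same mature protein and had log2 fold changes of -0.06 (SE 0.11) and 0.01 (SE 0.08).

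In the catalytic F1 part, Atp5a1, the alpha subunit, measured 331, 336 and 330 CPM in control and 310, 322 and 297 CPM after IL-1β. These groups do not overlap, and the log2 fold change of -0.10 (SE 0.06) had an adjusted p of 0.356. Atp5b, the beta subunit, measured 302, 308 and 327 CPM against 322, 325 and 304 CPM (0.02, SE 0.06). The 5 F1 genes had a median of -0.03, and none was called by edgeR, DESeq2 or limma (0 at an unadjusted p below 0.05). Atp5s, not itself a subunit, had the highest log2 fold change of the Atp5 genes, 0.21, at only 5.44 ± 0.413 CPM in control and 6.25 ± 2.14 CPM after IL-1β (SE 0.27). Complex V held 0.307 ± 0.00771% of counts in control and 0.286 ± 0.00272% in IL-1β samples. Its summed TMM levels do not overlap either, at 3019, 2991 and 3044 CPM against 2881, 2909 and 2949 CPM. Atp5g3, itself lower without overlap, is the largest single part of these sums, and the sum without this gene was not tested.

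**Figure D3:**
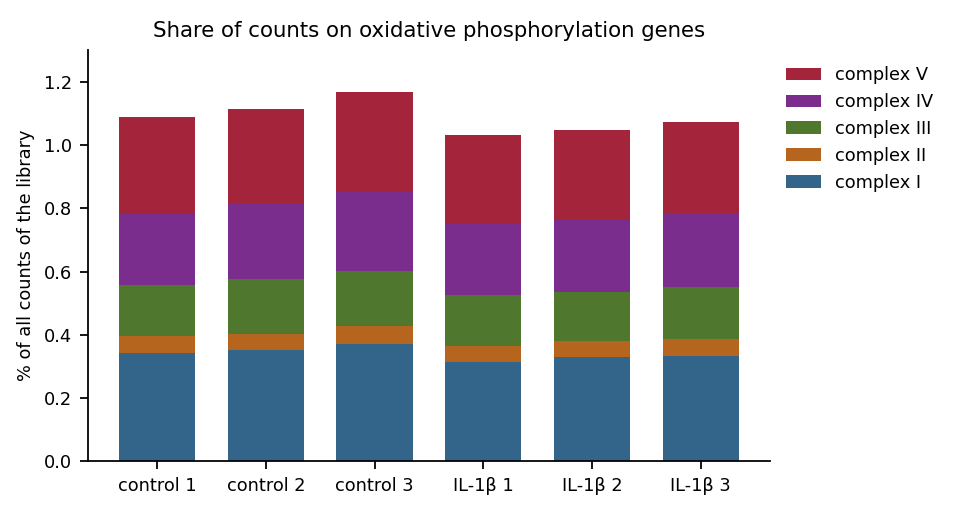
Percent of all counts in each of the 6 libraries that fell on the oxidative phosphorylation genes, stacked by complex. The bars reach 1.09 to 1.17% in the control libraries and 1.03 to 1.07% in the IL-1β libraries, and each complex takes a similar part of every bar.

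Genes that build, feed or regulate the complexes were taken from lists. Of 5 genes of the complexes or their partners whose symbols the rule misses, among them the mobile carrier Cycs, the acyl carrier Ndufab1 and the ATP synthase inhibitor Atpif1, 0 were called by edgeR, DESeq2 or limma (0 at an unadjusted p below 0.05). Cycs had a log2 fold change of -0.13 (SE 0.08) and Ndufab1 one of -0.19 (SE 0.15), while Usmg5 and 2010107E04Rik were at 0.06 and -0.00293. Of 14 assembly factors of complex I, 0 were called by any of these tools (0 at an unadjusted p below 0.05), and the smallest adjusted p, 0.266, belonged to the methyltransferase Ndufaf7 (-0.34, SE 0.18). Acad9, Ndufaf4 and Ndufaf1 had adjusted p-values of 0.297, 0.466 and 0.657.

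Of 32 assembly factors of complexes II to V, 1 was called (3.12%, against 13.4% of all genes tested). This was Cox20, which helps the mitochondrially encoded subunit COX2 to mature: it measured 103, 129 and 127 CPM in control and 84.5, 100 and 95.9 CPM after IL-1β. Its groups do not overlap, and its log2 fold change was -0.36 (SE 0.09, adjusted p = 0.00767). The call was lost without IL-1β replicate 1 (-0.28, adjusted p = 0.0895) or control replicate 2 (-0.29, adjusted p = 0.0652), the lowest adjusted p over the alternatives being 4.92e-05. The copper chaperone Cox17 (0.28, SE 0.10, adjusted p = 0.0581), Tmem70 (0.26, SE 0.09, adjusted p = 0.0693) and Cox18 (-0.30, SE 0.12, adjusted p = 0.0954) came next. Cox17 was called in 5 of 15 alternatives: with the exact test, a filter of 10 counts or no filter, the replicate block, and without control replicate 3 (0.39, adjusted p = 0.00712, the lowest over the alternatives, with 0.305 the highest). Cox18 was called with total-count scaling (adjusted p = 0.0436).

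Ubiquinone synthesis and the regulators of mitochondrial genes held no call with edgeR, DESeq2 or limma. Of 12 genes of ubiquinone synthesis 1 had an unadjusted p below 0.05, Adck4 (-0.29, SE 0.13, adjusted p = 0.143). It was called without IL-1β replicate 3 (-0.43, adjusted p = 0.0457, with 0.542 the highest over the alternatives). Pdss1, Coq10a and Coq9 had adjusted p-values of 0.305, 0.404 and 0.483. Of 14 regulators 3 had an unadjusted p below 0.05. Nrf1, a transcription factor of respiratory genes, measured 21.1, 20.7 and 19.5 CPM in control and 16, 14.9 and 18.1 CPM after IL-1β (-0.32, SE 0.14, adjusted p = 0.152). Lrpprc, which stabilizes mitochondrial mRNAs, had a log2 fold change of -0.17 (SE 0.08, adjusted p = 0.167) and was called without control replicate 1 (-0.26, adjusted p = 0.00539, with 0.544 the highest). The coactivator Pprc1 was at 0.26 (SE 0.13, adjusted p = 0.200) and Tfb1m at 0.47 (SE 0.23, adjusted p = 0.229).

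Among 14 enzymes of the TCA cycle, Idh2 alone was called (7.14%, against 13.4% of all genes tested). This NADP-dependent isocitrate dehydrogenase measured 25.5, 27.0 and 26.2 CPM in control and 14.2, 19.5 and 19.1 CPM after IL-1β, without overlap. Its log2 fold change was -0.57 (SE 0.14, adjusted p = 0.00542), and without IL-1β replicate 1 it was -0.43 with an adjusted p of 0.0566, the highest over its alternatives (lowest 0.00102). Suclg1 (-0.18, adjusted p = 0.153), Mdh2 (-0.11, adjusted p = 0.378) and Idh3a (0.15, adjusted p = 0.483) were not called, although Suclg1 passed without control replicate 1 (-0.23, adjusted p = 0.0499, with 0.516 the highest).

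Of 6 tested carriers that serve the ATP synthase, 2 were called higher and 1 lower (50.0%, against 13.4% of all genes tested). DESeq2 and limma each called 1 higher and 1 lower. Vdac3, a channel of the outer membrane, measured 70.8, 81.5 and 83.1 CPM in control and 104, 106 and 117 CPM in IL-1β samples, which is 0.48 on the log2 scale (SE 0.08, adjusted p = 0.000221). The phosphate carrier Slc25a3 measured 306, 328 and 340 CPM against 280, 282 and 265 CPM (-0.24, SE 0.07, adjusted p = 0.0159). The groups were apart in both genes. Slc25a3 lost its call without IL-1β replicate 1 or 3 or control replicate 2 or 3 (log2 fold changes of -0.24, -0.20, -0.22 and -0.20, adjusted p of 0.0527, 0.0921, 0.0643 and 0.0788), with 0.00228 the lowest over its alternatives. Slc25a4, the ATP/ADP carrier of heart and muscle, measured 12.1, 12.0 and 14.8 CPM against 15.2, 24.7 and 16.4 CPM. IL-1β replicate 2 was far above the rest, and the groups do not overlap. It was higher by 0.53 on the log2 scale (SE 0.18, adjusted p = 0.0474) and lost its call with DESeq2, limma or other scalings and without IL-1β replicate 2 (0.29, adjusted p = 0.414) or 3 (0.63, 0.0559) or control replicate 1 (0.49, 0.0741) or 2 (0.48, 0.146). The lowest adjusted p was 0.0138. Its liver-expressed relative Slc25a5 was not called (0.14, SE 0.07, adjusted p = 0.248).

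Among 13 tested genes of uncoupling, other routes of electron entry and mitochondrial stress, 1 was called higher and 1 lower. This was 15.4%, against 13.4% of all genes tested. Sod2, the manganese superoxide dismutase of the mitochondrial matrix, measured 263, 330 and 360 CPM in control and 862, 870 and 831 CPM after IL-1β. No IL-1β sample was near the control range, and the log2 fold change was 1.43 (SE 0.08, adjusted p = 9.77e-13). Etfb, a subunit of the flavoprotein that brings electrons from fatty acid oxidation to ubiquinone, measured 118, 114 and 126 CPM against 97.9, 96.9 and 95.2 CPM (-0.31, SE 0.08, adjusted p = 0.00611). Sqrdl (0.25, SE 0.09, adjusted p = 0.0615) and Gpd2 (-0.14, SE 0.08, adjusted p = 0.324) were not called. Sqrdl passed without IL-1β replicate 2 (0.32, adjusted p = 0.0421) or control replicate 2 (0.31, adjusted p = 0.0473), with 0.217 the highest over its alternatives.

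Other large nuclear-encoded machines give a scale for these values. Of all genes tested, 6.97% were called higher and 6.44% lower. Among 77 mitochondrial ribosomal protein genes, 1 was called higher and 1 lower, and the median log2 fold change was 0.000706, which turned to -0.05 with total-count and -0.03 with upper-quartile scaling. With total-count scaling 3 were called lower. Among 95 tested genes with symbols of cytosolic ribosomal proteins, a pattern that also takes in S6 kinase genes such as Rps6ka1, 4 were called higher and 0 lower with edgeR (18 had an unadjusted p below 0.05, and DESeq2 and limma also called 0 lower). Their median was 0.08, and it stayed above 0 with total-count (0.02) and upper-quartile (0.05) scaling, where 2 were called higher in each case. The difference between these families and the oxidative phosphorylation genes was not tested.

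The promoters of the members were read from RefSeq (GRCm38.p6), as 250 bases before to 50 after each start; 69 of the 85 genes matched, with 75 promoters. Motifs known from promoters of respiratory genes were searched on both strands. The NRF1 core GCGCATGC was in 10 of the 75 (13.3%), against 2.71% of all 32851 promoters and 5.25% of those of the genes tested. The YY1 motif AAGATGGC was in 12 (16%, against 2.75% and 4.55%), and the ETS motif CCGGAAG in 16 (21.3%, against 8.86% and 18%). The SP1 motif GGGCGG was in 29 (38.7%, against 35.7% and 61.8%). A match is a description of the sequence and not a bound site.

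The promoters of the 2 called genes are shown because both genes were lower. Each run ends at the base before the start of the transcript, is written 5′ to 3′ on the minus strand that the gene uses, and has motif matches in capitals. That of Ndufa6 (chr15:82354292-82354541) holds an NRF1 core, and that of Uqcr11 (chr10:80406822-80407071) holds an ETS motif. In the longer window, which adds 50 bases after the start, both genes have an NRF1 core, and Ndufa6 has an SP1 motif as well.
Ndufa6: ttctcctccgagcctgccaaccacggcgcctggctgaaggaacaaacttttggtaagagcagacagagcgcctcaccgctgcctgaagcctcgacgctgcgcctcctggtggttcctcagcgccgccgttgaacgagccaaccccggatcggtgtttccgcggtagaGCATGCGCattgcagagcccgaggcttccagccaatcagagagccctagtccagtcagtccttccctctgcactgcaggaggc
Uqcr11: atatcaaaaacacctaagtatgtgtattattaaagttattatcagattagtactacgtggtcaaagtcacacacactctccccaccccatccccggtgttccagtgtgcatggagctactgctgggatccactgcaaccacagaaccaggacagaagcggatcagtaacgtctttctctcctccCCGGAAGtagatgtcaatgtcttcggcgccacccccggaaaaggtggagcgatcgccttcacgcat

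QuantSeq counts rest on the 3′ end, so the last 300 nt of each member's transcript were compared, in windows of the 75 nt read length and on both strands, with all transcripts of other genes in GENCODE. In 63 of 85 members no window was shared, Ndufa6, Uqcr11, Ndufv3 and Sdhd among them. In 16 members more than 10% of windows were shared. These include Uqcrc2 (100.0%, with Pdzd9 on the other strand), Cox7c (99.1%, with Gm10012 and Gm12338), Atp5g2 (98.2%, with Gm10175 and Gm10231) and Ndufb6 (81.0%, with Smim27 on the other strand). The counting tool and its use of strand and of reads with several matches are not given in the sources used here, so the counts of these members may include reads of those genes or lack reads of their own.

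These values describe mRNA in bulk cultures, in the IL-1β group at a single time about a day after the cells left the liver. Neither subunit proteins nor respiration were measured here. The sources used here give neither the age nor the sex of the mice, name no step that selects hepatocytes over other liver cells, and do not say whether the 3 samples of a group came from separate animals or cultures. The p-values therefore measure the spread between these samples, which may be technical. The intervals cover that spread and counting error, and cover differences between animals only if the samples came from separate animals.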

How the data were processed

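The authors deposited raw counts per gene from single-end reads of 75 nt. Per the submitters' processing notes Bowtie2, edgeR and GRCm38 (mm10) were used. Their normalized log2 values, fold changes and p-values were not used. R 4.3.3 and edgeR 4.0.16 (filterByExpr, TMM, quasi-likelihood test, unpaired) served for the main fit, and p-values of the 11657 genes kept were adjusted by Benjamini-Hochberg. Python 3.11.15 made the summaries. The fit was tested on simulated data. Standard errors (SE) were derived from each log2 fold change and its F statistic. CPM values use TMM library sizes. With 3 samples per group, exact permutation reaches no p under 0.1. The series text speaks of fewer samples per group than it lists, and all 6 were used. Members, lists and the rule for named genes were chosen with earlier results of these data known. Genes named are the called members, the 3 most counted of each complex, Ndufa4l2, Cox4i2 and Cox7a2l, at most 4 genes with the smallest adjusted p of each pathway list, and the most counted gene and defining markers of each cell type list. Others were named after their values were seen. Alternatives were DESeq2 1.42.0, limma 3.58.1, the exact test, other scalings, filters and thresholds, omitting Rn45s, the replicate block and leaving out each sample.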

Additional observations from a re-analysis of the deposited data

How the results depend on the processing

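Ndufa6 and Uqcr11 were called in all 15 other fits, at -0.42 to -0.32 and -0.43 to -0.33 on the log2 scale. Without a count filter, with total-count scaling or with the replicate block, 4 members were called instead of 2, and without control replicate 1 there were 6; leaving out single samples gave 2 to 6. With an added fold change of 1.5 there were 0. The count over all genes was 1563, 996 at an adjusted p below 0.01, and 769 with a fold change over 1.5; leaving out single samples gave 1131 to 1596. With total-count scaling 662 genes were higher and 1008 lower, instead of 812 and 751. The members' median was -0.087 with total-count scaling, where the median of all genes was -0.06, and -0.05 to -0.01 with single samples left out. The ratio of the members' shares was 0.936, 0.926 without Rn45s in the total, and 0.922 to 0.955 with single samples left out, an alternative added after seeing the data. Of 959 values of named genes, 905 kept their side of the threshold without a marked change of direction; 30 of these, not called, changed sign by less than their SE. Cox7a2 reversed without control replicate 2 (0.024, against -0.13 without control replicate 1) and Ndufaf1 without IL-1β replicate 1 (-0.030, against 0.25 without IL-1β replicate 3); the cause was not tested. Same-numbered samples correlated by 0.0616, 0.00793 and 0.0038 in their deviations from the group means, so they were treated as unpaired; the block gave 1671 called genes. Depth limits low genes such as Ndufa4l2.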
